A study of Mus musculus with 4 samples.

Results

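The genes described here make, sense and carry bile acids in the liver. They are 10 genes taken by symbol from the 24346 genes listed in each of 4 liver libraries: Cyp7a1, Cyp8b1, Slc27a5 and Baat for synthesis, Nr1h4, Nr0b2 and Fgfr4 for sensing and feedback, and Slc10a1, Abcb11 and Abcb4 for transport. Each symbol was listed once per library, and all 10 were among the 12299 genes tested. RNA sequencing was performed on livers of male C57BL/6 mice fed, for 3 weeks, a diet rich in fat, cholesterol and sucrose with added bile salt, the NASH diet, which induces steatohepatitis. The diet of the 7KC group (n = 2) also contained 7-ketocholesterol (7KC), an oxidized form of cholesterol, and the diet of the control group (n = 2) did not. Both groups thus received cholate, a bile acid salt, and cholesterol in the food, and livers from mice on an ordinary diet were not analysed here. The labels number the replicates without naming an animal for each, so p-values measure only the spread between these samples, which may be technical.

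Bile acids are made from cholesterol in hepatocytes. CYP7A1 catalyses the rate-limiting first step of the classical pathway, CYP8B1 adds the hydroxyl group that sends the product towards cholic acid, and SLC27A5 and BAAT attach the finished acids to coenzyme A and then to taurine or glycine. The nuclear receptor FXR, encoded by Nr1h4, is activated by bile acids and induces Nr0b2, whose protein SHP represses Cyp7a1 and Cyp8b1. FGFR4, the hepatic receptor of an intestinal hormone released after bile acid uptake, represses the same enzymes. SLC10A1 takes conjugated bile acids up from portal blood, and ABCB11 and ABCB4 export bile acids and phosphatidylcholine into bile.

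Expression was given as FPKM, a read density scaled by exon length and by the size of the library, so levels may be compared between genes. The depth of the libraries was estimated at 13640000 to 17080000 mapped reads. All 14 hepatocyte markers examined were at 349 FPKM or more in every library, and of 6 genes read as markers of intestine Fgf15 and Fabp6 were listed at 0 in all libraries and Vil1 and Cdh17 did not exceed 0.0495 FPKM, whereas Fabp2, which encodes a fatty acid-binding protein, was at 105 to 171 FPKM and the bile acid carrier Slc10a2 at 4.67 to 14.7 FPKM.

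Promoter sequences are shown for 3 of the genes, Cyp8b1 and Nr0b2 for their opposite levels in the control libraries, described below, and Abcb11 as a textbook target of FXR. The 250 bases upstream of the start site were taken from RefSeq on build GRCm38.p6, which has the coordinates of mm10, and are written from 5′ to 3′ on the strand of the gene. Capitals mark 3 motifs searched on both strands: AGGTCA, the half-site of many nuclear receptors, TCAAGG, the core of the site of the receptor LRH-1, and CAAAGTCCA, a core of the site of HNF4A.
Cyp8b1 (chr9:121916306-121916555, minus strand): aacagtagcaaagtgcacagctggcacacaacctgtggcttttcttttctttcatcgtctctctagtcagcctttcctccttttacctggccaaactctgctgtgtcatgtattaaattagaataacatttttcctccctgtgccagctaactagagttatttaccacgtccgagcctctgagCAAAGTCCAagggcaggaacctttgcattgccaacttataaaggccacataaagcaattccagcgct
Nr0b2 (chr4:133553126-133553375, plus strand): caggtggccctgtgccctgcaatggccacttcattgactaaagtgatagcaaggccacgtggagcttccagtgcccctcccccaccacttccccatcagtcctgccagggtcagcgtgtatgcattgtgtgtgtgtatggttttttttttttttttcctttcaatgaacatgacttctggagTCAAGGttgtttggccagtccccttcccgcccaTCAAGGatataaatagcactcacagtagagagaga
Abcb11 (chr2:69342617-69342866, minus strand): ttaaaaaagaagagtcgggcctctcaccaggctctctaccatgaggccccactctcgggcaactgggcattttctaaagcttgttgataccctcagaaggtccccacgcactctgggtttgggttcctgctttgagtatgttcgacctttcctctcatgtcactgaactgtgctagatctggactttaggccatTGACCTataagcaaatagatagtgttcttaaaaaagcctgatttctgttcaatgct

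Cyp8b1 held CAAAGTCCA at bases -67 to -59 from its start site, Nr0b2 held TCAAGG at -68 to -63 and again at -35 to -30, and Abcb11 held the half-site, read on the opposite strand, at -56 to -51. No match overlapped another. Among 32851 upstream windows of the same length over all genes, 0.384% held CAAAGTCCA, 12.5% held TCAAGG and 14.0% held AGGTCA on either strand. An exact match to the half-site followed by any base and its own reverse complement, the consensus of FXR sites, occurred in 2 of these windows. It occurred in none of the 8 windows found for 7 of the 10 genes. Inexact matches were not searched, and the Abcb11 window reads aggccatTGACCT, with c in place of the T of the first half-site. No window was found for Cyp7a1, Slc27a5 and Baat. A match of letters is a description of the window and shows no binding.

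The 10 genes covered a wide range of expression. By the mean of the 4 libraries the order was Slc27a5, Slc10a1, Baat, Abcb11, Abcb4, Nr1h4, Nr0b2, Cyp7a1, Cyp8b1 and Fgfr4, from 336 FPKM for Slc27a5 to 10.7 FPKM for Fgfr4. The conjugating enzymes and the transporters were thus the abundant transcripts, and the hydroxylases and Fgfr4 the scarce ones. Slc27a5 was the highest and Slc10a1 the next in every library. Lower in the order neighbours changed places: Abcb4 stood above Nr1h4 in 3 libraries and below it in control replicate 2, Nr0b2 stood above Cyp7a1 and Cyp8b1 in 3 libraries and below both in control replicate 2, and Cyp8b1 was below Fgfr4 in control replicate 1 and 7KC replicate 2.

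**Figure D1:**
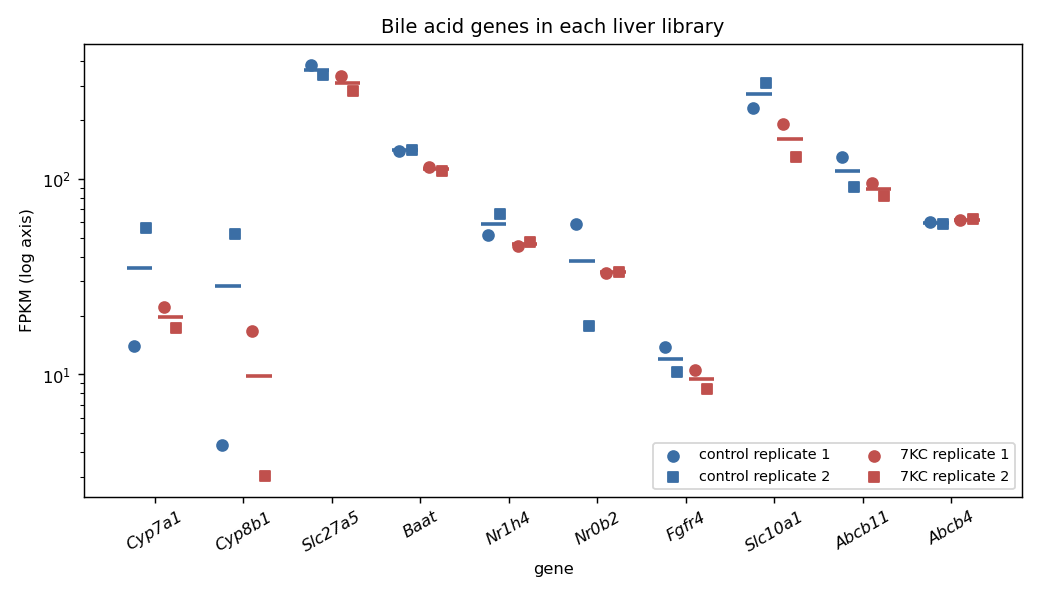
FPKM of the 10 bile acid genes on a log axis, with control libraries in blue, 7KC libraries in red, circles for replicate 1, squares for replicate 2 and bars for the group means. The control libraries stand far apart for Cyp7a1, Cyp8b1 and Nr0b2, with replicate 2 on top for both enzymes and replicate 1 on top for Nr0b2, whereas the points of Baat and Abcb4 lie close together within each group.

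The comparison between the groups asked whether 7KC in the NASH diet went with other levels of these genes. None of the 10 passed limma at an adjusted p under 0.05 over all genes tested, where 0.480% of genes passed as higher (59 genes) and 0.0244% as lower (3 genes). Slc10a1 and Baat had an unadjusted p under 0.05, both lower in the 7KC group, beside 5.81% of all genes tested that were lower and 12.0% that were higher by this rule. The log2 change, on the scale log2(FPKM + 0.5), was below 0 for 8 of the 10 genes (for 3 when libraries were scaled to hepatocyte markers), and its median was -0.32, beside -0.03 over all genes tested. In 4 genes, Slc27a5, Baat, Nr1h4 and Slc10a1, both 7KC libraries lay below both control libraries, beside 27.4% of all genes tested, and in 1, Abcb4, both lay above, beside 25.1%. For a single gene 2 libraries against 2 cannot give an exact permutation p below 0.333.

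**Figure D2:**
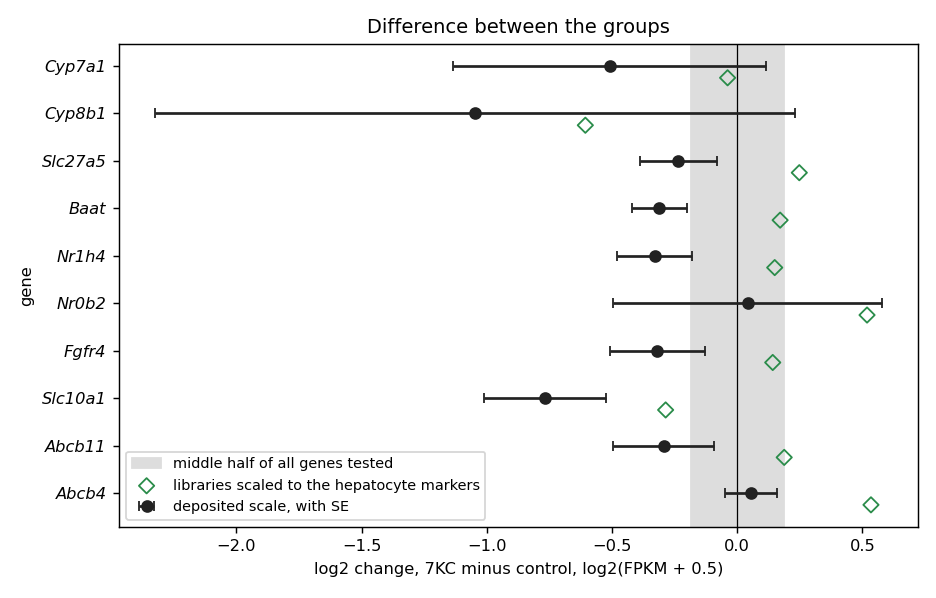
Log2 change of each gene between the 7KC and control groups on the deposited scale (black, with the standard error of limma) and after libraries were scaled to the hepatocyte markers (green diamonds), with the interquartile range of all genes tested, -0.19 to 0.19, in grey. Error bars are widest for Cyp8b1, Cyp7a1 and Nr0b2, and on the hepatocyte scale 5 genes that were below 0 move above it.

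Cyp7a1 and Cyp8b1 had the widest spread between the control libraries. Cyp7a1 (chromosome 4, 6265612 to 6275633, minus strand, 6 exons) was at 13.9 and 55.9 FPKM in control replicates 1 and 2, against 22.0 and 17.3 FPKM in 7KC replicates 1 and 2. One control library was the highest and the other the lowest of all, and both 7KC libraries lay between them. The mean was 34.9 ± 29.7 FPKM over the control livers and 19.7 ± 3.34 FPKM over the 7KC livers (SD, n = 2 each). Its log2 change was -0.51 (SE 0.62, adjusted p 0.704 by limma).

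Cyp8b1 (chromosome 9, 121914356 to 121916305, minus strand), whose transcript has 1 exon, was at 4.37 and 52.5 FPKM in control replicates 1 and 2, against 16.7 and 3.02 FPKM in 7KC replicates 1 and 2. The control libraries differed 12.0-fold and the 7KC libraries 5.52-fold, and the groups overlapped. The lowest value stood for about 73 reads and the highest for about 1267, for which counting alone gives coefficients of variation of 11.7% and 2.81%, so the spread between libraries was far larger than counting error. The mean was 28.4 ± 34.0 FPKM over the control livers and 9.85 ± 9.66 FPKM over the 7KC livers. The log2 change of -1.05 was the largest of the set and the least certain (SE 1.28, adjusted p 0.703 by limma, 95% interval -4.28 to 2.19).

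The direction for both enzymes rested on control replicate 2. Without it the log2 change was 0.47 for Cyp7a1 and 0.68 for Cyp8b1, and without control replicate 1 it was -1.49 and -2.77. Without 7KC replicate 2 the log2 change of Cyp8b1 was 0.10. Cyp7a1 passed limma without control replicate 1 (adjusted p 0.0286, over the alternatives 0.0286 to 0.944), a setting in which the lone control library is assumed to vary like the others.

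Both conjugating enzymes were abundant. Slc27a5 (chromosome 7, 12988346 to 12998192, minus strand), the bile acid coenzyme A ligase, was at 385 and 341 FPKM in the control livers, against 337 and 281 FPKM in the 7KC livers. The groups did not overlap, but 7KC replicate 1 lay close below control replicate 2. The mean was 363 ± 31.1 FPKM over the control livers and 309 ± 39.2 FPKM over the 7KC livers, and the log2 difference was -0.24 (SE 0.15, adjusted p 0.470 by limma). Leaving out 7KC replicate 2 gave -0.11, leaving out control replicate 1 gave -0.15 and leaving out 7KC replicate 1 gave -0.36.

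Baat (chromosome 4, 49489422 to 49506557, minus strand), the amino acid N-acyltransferase that completes conjugation, was at 139 and 141 FPKM in the control livers, against 115 and 110 FPKM in the 7KC livers. Replicates were close in both groups and the groups did not overlap. The mean was 140 ± 1.87 FPKM over the control livers and 113 ± 3.64 FPKM over the 7KC livers, a difference of -19.4%. The log2 change was -0.31 (SE 0.11, unadjusted p 0.0349, adjusted p 0.242 by limma). Leaving out any single library left the log2 change of Baat between -0.34 and -0.28, whereas it was -0.16 under quantile normalization, -0.10 with libraries rescaled to the same sum and 0.17 with libraries scaled to hepatocyte markers.

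Of the sensing genes, Nr1h4 and Fgfr4 were lower in mean in the 7KC group and Nr0b2 was split within the control group. Nr1h4 (chromosome 10, 89454234 to 89533585, minus strand), which encodes FXR, was at 51.5 and 65.9 FPKM in the control livers, against 45.2 and 47.4 FPKM in the 7KC livers. The groups did not overlap, and the 7KC libraries were close to each other. On the log2 scale the difference was -0.33 (SE 0.15, adjusted p 0.331 by limma). With control replicate 1 left out Nr1h4 was at -0.51, and with control replicate 2 left out it was at -0.15.

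Nr0b2 (chromosome 4, 133553376 to 133556536, plus strand), the repressor induced by FXR, was at 58.9 and 17.6 FPKM in control replicates 1 and 2, against 33.0 and 33.6 FPKM in 7KC replicates 1 and 2. The control libraries differed 3.34-fold and enclosed both 7KC libraries, which differed 1.02-fold. The mean was 38.3 ± 29.2 FPKM over the control livers and 33.3 ± 0.395 FPKM over the 7KC livers. The difference was 0.04 log2 units (SE 0.54, adjusted p 0.974 by limma), while the ratio of the mean FPKM was 0.870, so its sign depended on the scale. It was 0.90 without control replicate 1 (adjusted p 0.0478, over the alternatives 0.0478 to 0.995) and -0.81 without control replicate 2.

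Fgfr4 (chromosome 13, 55152640 to 55168759, plus strand), the receptor tyrosine kinase of the gut-to-liver signal, was at 13.7 and 10.3 FPKM in the control livers, against 10.5 and 8.41 FPKM in the 7KC livers. Control replicate 2 and 7KC replicate 1 were nearly level, so the groups overlapped. Its log2 change was -0.32 (SE 0.19, adjusted p 0.428 by limma). Without control replicate 1 it was -0.12 and without control replicate 2 it was -0.52, and without 7KC replicates 1 and 2 in turn it was -0.47 and -0.16.

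Among the transporters, Slc10a1 had the largest difference without overlap of the groups. Slc10a1 (chromosome 12, 80953183 to 80968705, minus strand), the sodium-dependent uptake carrier, was at 231 and 311 FPKM in the control livers, against 190 and 130 FPKM in the 7KC livers. Both 7KC libraries lay below both control libraries. The mean was 271 ± 56.5 FPKM over the control livers and 160 ± 42.8 FPKM over the 7KC livers, a ratio of 0.591. The log2 change was -0.77 (SE 0.24, 95% interval -1.38 to -0.15), with an unadjusted p of 0.0233 and an adjusted p by limma of 0.207. It stayed below 0 under every alternative run, between -1.04 and -0.29, and its adjusted p ranged from 0.0566 to 0.641. Without 7KC replicate 2 it was -0.49.

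Abcb11 (chromosome 2, 69238282 to 69342616, minus strand), the bile salt export pump, was at 129 and 90.8 FPKM in the control livers, against 95.5 and 81.5 FPKM in the 7KC livers. Control replicate 1 stood above the other 3 libraries, and the groups overlapped. On the log2 scale the difference was -0.29 (SE 0.20, adjusted p 0.486 by limma), and it was -0.04 without control replicate 1, while leaving out control replicate 2 gave -0.55 and leaving out 7KC replicate 2 gave -0.18. Exons of Abcb11 overlap Gm13613 and Gm13614 on the opposite strand, and whether strand was used in counting is not given in the sources used here.

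Abcb4 (chromosome 5, 8893717 to 8959231, plus strand), the phosphatidylcholine floppase, was close to level in all 4 libraries. It was at 60.3 and 58.7 FPKM in the control livers, against 61.5 and 62.1 FPKM in the 7KC livers. The 7KC libraries lay just above the control libraries, by 3.86% in the means. The difference was 0.05 log2 units (SE 0.10, adjusted p 0.818 by limma), with a 95% interval from -0.21 to 0.32. Of the 75-base words in its longest coding transcript, 1.50% also occur in its relatives Abcb1a or Abcb1b, so few of its reads could have been shared.

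Ratios between members within a library do not depend on how libraries are scaled to each other. Cyp8b1 stood to Cyp7a1 at 0.314 and 0.938 in the control libraries and at 0.758 and 0.175 in the 7KC libraries, so each group held a high and a low library. Nr0b2 stood to Nr1h4 at 1.14 and 0.268 in the control libraries and at 0.730 and 0.708 in the 7KC libraries. The uptake carrier Slc10a1 stood to the export pump Abcb11 at 1.79 and 3.42 in the control libraries and at 1.99 and 1.59 in the 7KC libraries. Abcb4 stood to Abcb11 at 0.467 and 0.647 in the control libraries and at 0.644 and 0.761 in the 7KC libraries, and Slc27a5 to Baat at 2.78 and 2.41 and at 2.92 and 2.55. In all 5 ratios the groups overlapped.

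Among the 10 genes the control replicates differed most in Cyp8b1, Cyp7a1 and Nr0b2. On the log2 scale, control replicate 2 minus replicate 1 was 3.44 for Cyp8b1, 1.97 for Cyp7a1 and -1.71 for Nr0b2. Among the 4863 genes tested with a mean of at least 10 FPKM, where the median absolute difference between the control libraries was 0.14, these ranked as the 9th, 29th and 37th largest. Between the 7KC libraries Cyp8b1 ranked as the 13th largest, at -2.29, whereas Cyp7a1 was at -0.34 and Nr0b2 at 0.02. From the highest down, the order for Nr0b2 was control replicate 1, 7KC replicate 2, 7KC replicate 1 and control replicate 2. The order for Cyp7a1 was the reverse. In 7KC replicates 1 and 2 Nr0b2 stood for about 420 and 431 reads, for which counting alone gives coefficients of variation of 4.88% and 4.82%. Which 7KC library was higher for Nr0b2 was thus within counting error. Of all genes tested, 2.91% shared the order of Nr0b2 and 2.94% that of Cyp7a1.

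**Figure D3:**
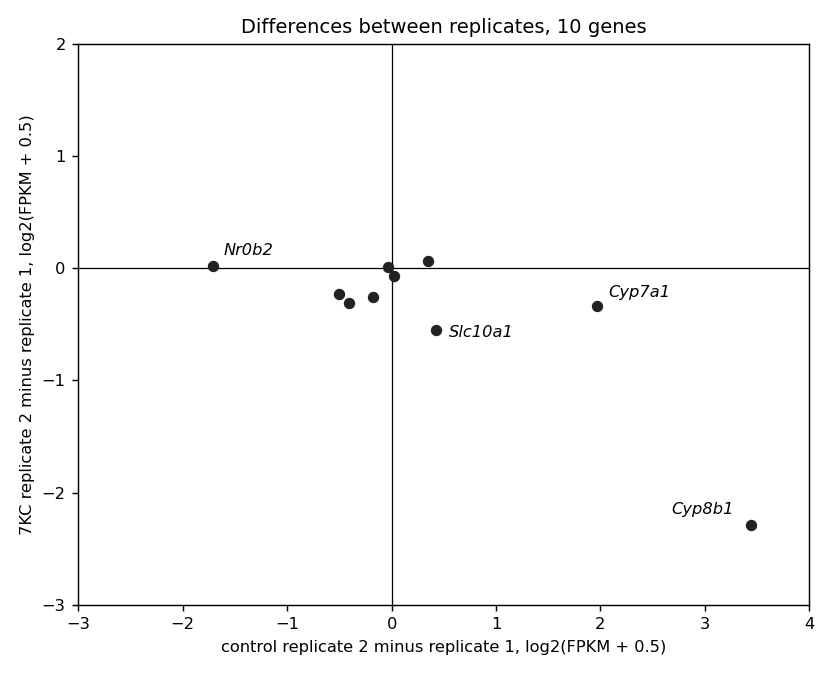
Difference between replicates 2 and 1 on the log2(FPKM + 0.5) scale for the 10 bile acid genes, with the control group on the horizontal and the 7KC group on the vertical axis. Cyp8b1 lies far from 0 on both axes (3.44 and -2.29), and Cyp7a1 (1.97) and Nr0b2 (-1.71) lie far from 0 on opposite sides of the control axis.

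Genes that shared these orders were looked up after the values were seen. Of 47 other genes of the pathway tested, 1 (2.13%) had the order of Cyp7a1 and 2 (4.26%) had that of Nr0b2, beside the 2.94% and 2.91% of all genes tested. The former was Cyp7b1, the hydroxylase of the alternative pathway, at 27.4 and 66.0 FPKM in the control livers, against 55.2 and 38.3 FPKM in the 7KC livers. Slc51b, a subunit of the basolateral bile acid exporter and a known FXR target, had the order of Nr0b2: it was at 3.39 FPKM and listed at 0 in the control libraries and at 1.85 and 2.89 FPKM in the 7KC livers. The other was Cyp2b10, a cytochrome P450 induced by the receptor CAR, at 10.8 and 4.23 FPKM in the control livers, against 5.79 and 8.17 FPKM in the 7KC livers. Outside these 47 genes, Slc10a2, the apical bile acid carrier best known from ileum and bile ducts, had the order of Nr0b2 too. It was at 14.7 and 4.67 FPKM in the control livers, against 5.07 and 6.66 FPKM in the 7KC livers. Lrat, read as a marker of stellate cells, also had that order. Its levels were 7.09 and 4.35 FPKM in the control livers and 4.91 and 6.41 FPKM in the 7KC livers. Abcb11, a textbook target of FXR, did not have that order. The order of Nr0b2 rests in part on 7KC libraries that differed within counting error. With 4 libraries these orders are a description, and no correlation was computed.

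Because Cyp7a1 is expressed with a daily rhythm, a list of 14 clock and clock output genes was also read, chosen after the values were seen. Dbp, a clock output factor known to drive Cyp7a1, was at 77.3 and 69.8 FPKM in the control livers, against 67.3 and 49.5 FPKM in the 7KC livers. Nr1d1, which encodes the clock repressor REV-ERBα, was at 35.4 and 23.3 FPKM in the control livers, against 20.2 and 16.5 FPKM in the 7KC livers. Of 13 clock genes tested, 8 had both 7KC libraries below both control libraries, beside 27.4% of all genes tested, and none passed limma (2 had an unadjusted p under 0.05). Per1 had the library order of Nr0b2, at 13.4 and 7.26 FPKM in the control livers, against 8.29 and 12.3 FPKM in the 7KC livers. The part of the clock in the spread of the hydroxylases was not tested.

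A further 50 genes of bile acid synthesis, regulation, transport and detoxification were examined in 4 lists, of which 47 were tested. None passed limma (8 lower and 2 higher had an unadjusted p under 0.05, beside 5.81% and 12.0% of all genes tested). Both 7KC libraries lay below both control libraries in 23 of the 47, or 48.9%, and above them in 5, or 10.6%, beside 27.4% and 25.1% of all genes tested. The median log2 change was -0.23.

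Of 16 other synthesis genes tested, 8 (50%) were lower without overlap and 1 (6.25%) was higher, beside 27.4% and 25.1% of all genes tested. Scp2, a peroxisomal sterol carrier and thiolase, was the most abundant, at 1524 ± 110 FPKM over the control livers and 1242 ± 245 FPKM over the 7KC livers. Akr1c6, a hydroxysteroid dehydrogenase, had the largest change of the list, from 842 ± 198 to 561 ± 79.1 FPKM, and the log2 difference was -0.57 (SE 0.22, adjusted p 0.270 by limma). Cyp39a1, the oxysterol hydroxylase for 24-hydroxycholesterol, followed with -0.51 (SE 0.25, adjusted p 0.349). Slc27a2, a further acyl coenzyme A synthetase, overlapped between the groups, with a log2 change of -0.23.

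Of 11 other regulators tested, 6 (54.5%) were lower without overlap and 1 (9.09%) was higher, beside 27.4% and 25.1% of all genes tested. Hnf4a, an activator of both hydroxylase genes, was at 154 and 150 FPKM in the control livers, against 131 and 125 FPKM in the 7KC livers, and the log2 difference was -0.25 (SE 0.11, adjusted p 0.321). Rxra, the partner of FXR, had a log2 difference of -0.19 (adjusted p 0.413), and Nr1h3, which encodes LXRα, had -0.02. Klb, the coreceptor of FGFR4, was at 9.25 and 13.5 FPKM in the control livers, against 7.34 and 6.31 FPKM in the 7KC livers, and the log2 difference was -0.68 (SE 0.20, adjusted p 0.193). Vdr, the vitamin D receptor, which also binds lithocholic acid, was at 0.308 and 0.104 FPKM in the control livers, against 1.26 and 0.938 FPKM in the 7KC livers, and the log2 difference was 1.19 (SE 0.25, adjusted p 0.104).

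Of 13 other transporters tested, 7 (53.8%) were lower without overlap and 2 (15.4%) were higher, beside 27.4% and 25.1% of all genes tested. The hepatic uptake carrier Slco1b2 was at 361 ± 60.4 FPKM over the control livers and 269 ± 21.5 FPKM over the 7KC livers, and the log2 difference was -0.41 (adjusted p 0.287). Slco1a1, a sex-dependent uptake carrier, had the largest change of the list, -1.13 (SE 0.54, adjusted p 0.352), and its groups overlapped. Slco1a4, a related carrier, was at 21.6 and 17.4 FPKM in the control livers, against 10.8 and 11.1 FPKM in the 7KC livers. Its log2 change was -0.80 (SE 0.14), and its adjusted p of 0.0742 by limma was the smallest of the 47 genes. The sterol exporters Abcg5 and Abcg8 had log2 changes of -0.74 and -0.67 (adjusted p 0.101 and 0.175), with no overlap of the groups. Slc51b had a log2 difference of 1.02 (SE 0.94, adjusted p 0.608), which a value listed at 0 in control replicate 2 makes uncertain.

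Of 7 detoxification genes tested, 2 (28.6%) were lower without overlap, near the 27.4% of all genes tested. Higher without overlap was 1 (14.3%), beside 25.1% of all genes tested. Cyp3a11, a cytochrome P450 that hydroxylates bile acids, was at 2376 ± 257 FPKM over the control livers and 1880 ± 7.16 FPKM over the 7KC livers, and the log2 difference was -0.33 (adjusted p 0.392). Sult2a8, a bile acid sulfotransferase, had a log2 difference of -0.71 (SE 0.33, adjusted p 0.339) with overlap of the groups, and Ephx1 had 0.08. Gsta1, a glutathione transferase with close relatives, was at 2.96 and 1.33 FPKM in the control livers, against 8.18 and 7.78 FPKM in the 7KC livers, and the log2 difference was 1.75 (SE 0.31, adjusted p 0.0742).

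**Figure D4:**
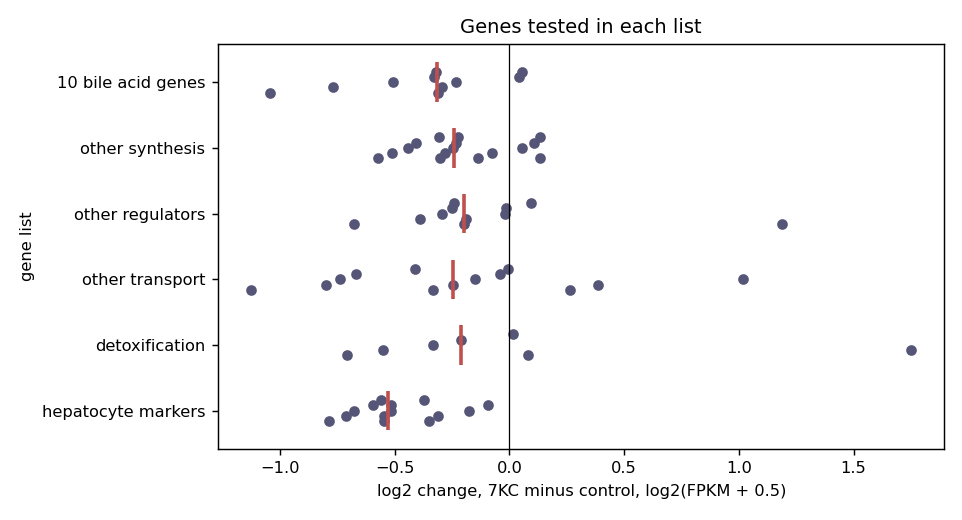
Log2 change between the 7KC and control groups for each gene tested (points) in the 10 bile acid genes, 4 lists of other bile acid genes and the hepatocyte markers, with the median of each list as a red bar. The medians of the bile acid lists lie between -0.32 and -0.20, above the -0.53 of the hepatocyte markers, and single genes such as Gsta1 (1.75) and Vdr (1.19) lie far to the right.

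Hepatocyte markers outside bile acid metabolism were also lower in mean in the 7KC group. All 14 hepatocyte markers tested had a log2 change below 0, with a median of -0.53, and in 11 of them both 7KC libraries lay below both control libraries, beside 27.4% of all genes tested, although none passed limma (4 had an unadjusted p under 0.05). Their summed level was 95566 and 81833 FPKM in the control livers, against 70601 and 55026 FPKM in the 7KC livers. Of 10 markers of macrophages and monocytes, 8 had both 7KC libraries above both control libraries, beside 25.1% of all genes tested, and the summed level was 704 and 480 FPKM in the control livers, against 1243 and 1949 FPKM in the 7KC livers. Of 8 markers of T and NK cells, 8 lay above, with summed levels of 19.4 and 13.6 FPKM against 48.7 and 42.4 FPKM. None of the macrophage and monocyte markers passed limma (smallest adjusted p 0.0523), nor did any of the T and NK cell markers (0.0503). In each of these lists 8 had an unadjusted p under 0.05, beside 12.0% of all genes tested that were higher by this rule. Cholangiocyte, endothelial and stellate cell markers had median log2 changes of 0.26 (5 tested), -0.14 (6 tested) and -0.13 (6 tested). No marker of these lists was listed at 0 in any library, and their part in the values of the 10 genes was not tested. In whole liver, fewer hepatocytes and less of a transcript per hepatocyte cannot be told apart.

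Scaling libraries to the same mean log2 level of the hepatocyte markers moved the median log2 change of all genes tested to 0.41. Signs within the set changed with this shift, and the median of the set stayed below that of all genes tested. The median of the 10 genes was 0.16, and 5 genes turned from below to above 0: Slc27a5 (0.25), Abcb11 (0.19), Baat (0.17), Nr1h4 (0.15) and Fgfr4 (0.14). All 5 remained below the 0.41 of all genes tested. Slc10a1 stayed below 0 at -0.29 (SE 0.19, adjusted p 0.250 by limma), as did Cyp8b1 at -0.61 and Cyp7a1 at -0.04. Abcb4 was at 0.53 and passed limma on this scale (SE 0.18, adjusted p 0.0407, over the alternatives 0.0407 to 0.949), on which 2227 genes passed as higher and 15 as lower. Rescaling each library to the same sum moved the median of all genes to 0.17 and left the direction of the 10 genes as it was, with Slc27a5 at -0.03, Abcb11 at -0.09, Baat at -0.10, Fgfr4 at -0.12, Nr1h4 at -0.13 and Abcb4 at 0.26.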

How the data were processed

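RNA from 4 mouse liver samples was profiled, 2 per group, and groups were taken from the sample titles. The authors prepared stranded mRNA libraries, sequenced them as single-end reads, mapped them to mm10 (the submitters' processing notes list TopHat2 2.1.1 and Bowtie2 2.2.8) and deposited FPKM per gene symbol from Cufflinks or Cuffdiff (2.2.1). The annotation and the handling of strand and shared reads are not given in the sources used here. Since FPKM divides by the mapped fragments of the whole library, abundant genes that change shift the values of the rest.

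Values were compared as log2(FPKM + 0.5), which understates changes of low genes. The 12299 genes whose mean over the libraries reached 0.5 FPKM entered a limma fit (version 3.58.1, R 4.3.3) with the group as the only term and a trended prior variance. P-values were two-sided and adjusted by the Benjamini-Hochberg method over all genes tested. The procedure was tested on simulated data. Depth was estimated as the number of mapped reads that brought the most low values of single-transcript genes (length minus 200 bases) within 0.1 of a whole read. Between 71.3% and 76.5% of 390 to 421 values did so, beside 20% by chance. Reads per gene are approximate, use the longest coding transcript of GENCODE M21, and cover counting error only. Gene coordinates are from GENCODE M21, on the build of the files.

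The 10 genes and the lists were chosen with earlier results of these data known. Of the other lists, the genes named are the 3 with the highest mean and the 2 with the largest absolute log2 change. The clock list, Cyp7b1, Cyp2b10, Fabp2, Slc10a2, Lrat, Slco1a4 and Per1 were chosen after their values were seen. Other pseudocounts, filters, scalings, prior variances, a replicate block and leaving out single libraries were tried.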

Additional observations from a re-analysis of the deposited data

How the results depend on the processing

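The 2 libraries per group limit every result here. None of the 10 genes passed under the pseudocounts, filters, prior variances, replicate block or scalings tried, except Abcb4 on the hepatocyte scale, where 1 of the 10 genes passed, 2 were higher and 0 lower without overlap, and the median was 0.16. Leaving out single libraries gave medians of -0.39 to -0.17, with 1 to 2 genes higher and 4 to 7 lower without overlap. Groups separate more easily when a group holds a single library. On the TPM scale the median was -0.11 and 2 genes were lower without overlap, as were 2 under quantile normalization. The share of all genes without overlap was not computed for these scales, the hepatocyte scale or libraries left out. These counts of genes without overlap therefore have nothing to be compared with. On the hepatocyte scale Slc27a5 was at 0.25, Baat at 0.17, Nr1h4 at 0.15, Fgfr4 at 0.14 and Abcb11 at 0.19. Over the libraries left out Cyp7a1 ranged from -1.49 to 0.47, Cyp8b1 from -2.77 to 0.68 and Nr0b2 from -0.81 to 0.90. The cause was not tested beyond which library was left out.

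Over all genes, against 59 higher and 3 lower, the counts were 111 higher with a pseudocount of 1 FPKM, 0 and 1 without a filter (2634 with an unadjusted p under 0.05), 39 and 1 without the variance trend, 402 and 7 on the TPM scale, 94 higher with the median ratio, 2227 and 15 on the hepatocyte scale, and 2 to 389 higher and 1 to 52 lower without single libraries. The replicate block gave 0 and 0 (1851 with an unadjusted p under 0.05), and same-numbered libraries deviated with a correlation of -0.14 across genes. A single correlation cannot show whether the numbers mark pairs, and the labels do not say. Pairing the numbers crosswise, tried after seeing the data, gave 551 higher and 37 lower and 0 of the 10 genes. The replicate block changed no call among the 10 genes.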
